A study of Mus musculus with 12 samples.

Results

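The comparison described here is the effect of deleting Bmal1 (gene symbol Arntl) in kidney tubules on whole-kidney RNA in the light phase, 4 h after lights on (ZT4, Zeitgeber time). Its members were chosen by their labels: the 3 knockout libraries at ZT4 (KO replicates 2, 4 and 6) and the 3 wild-type libraries at ZT4 (WT replicates 1, 3 and 5), 6 of the 12 libraries in the series, with every row of the count files that names a gene. The other 6 libraries come from the same genotypes at ZT16, 4 h after lights off, and were used for the last comparison only. Knockout mice carried Bmal1lox/lox, Pax8-rtTA and LC1, in which a Pax8 promoter drives the doxycycline-dependent activator and LC1 carries the Cre recombinase it switches on. Doxycycline was given at 2 mg/ml in drinking water for 2 weeks to mice 8 weeks old, on a C57BL/6J background, with 12 h of light in each day. The controls are labelled as wild-type littermates. The labels do not say whether they drank doxycycline too, which of the 3 alleles they carried, which sex was used, or whether each library is a separate animal. The p-values therefore refer only to the variation among these libraries, part of which may be technical. The deletion is directed at tubular cells, while the RNA came from whole kidney, which also holds glomerular, vascular, interstitial and blood cells.

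BMAL1 is a transcription factor of the circadian clock. It pairs with CLOCK or NPAS2, binds E-box sequences and activates the Period and Cryptochrome genes, whose proteins return to inhibit it. The same E-box drive reaches the REV-ERB receptors (Nr1d1, Nr1d2), which compete with ROR receptors at RORE sequences and repress Arntl, Clock, Npas2, Cry1 and Nfil3, and the PAR bZIP factors DBP, TEF and HLF, which act at D-box sequences against the repressor NFIL3. In the kidney the clock is known for daily rhythms in solute and water transport, in xenobiotic handling and in mitochondrial fuel use.

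Gene counts summed to between 25628887 and 37648890 in the 6 libraries. All values below are counts scaled to CPM (counts in each 1000000) with TMM normalization and are listed in the order of replicates 1, 3 and 5 for WT and 2, 4 and 6 for KO. Several library measures differed with genotype. Alignments that were not unique made up 34.1% to 36.5% of a library in WT and 30.8% to 31.3% in KO. Mitochondrial transcripts took 16.3% to 18.0% of the counts in WT and 12.6% to 12.8% in KO, the 10 most abundant genes took 21.5% to 23.9% and 17.7% to 18.0%, and reads in no feature made up 4.38% to 5.10% and 5.72% to 5.96% of a library. The first principal component held 51.3% of the variance of log2 CPM and separated the genotypes, with WT replicate 5, at 10.4, lying nearer to the KO libraries (-20.5 to -21.9) than WT replicates 1 and 3 did (25.2 and 28.7). The part of these library differences in the results was not tested. The defining kidney transcripts were abundant in all 6 libraries: Lrp2, the endocytic receptor megalin of the proximal tubule, had 3041, 2969 and 3106 CPM in WT and 2975, 2698 and 2869 CPM in KO, and Slc12a1, the sodium-potassium-chloride cotransporter of the thick ascending limb, had 1351, 1258 and 1424 CPM in WT and 1594, 1518 and 1563 CPM in KO.

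Of 15851 genes tested, 2877 differed between KO and WT at ZT4 (18.2%; edgeR's quasi-likelihood test, Benjamini-Hochberg adjusted p under 0.05), 1527 higher in KO (9.63%) and 1350 lower (8.52%). Before adjustment 5479 genes had p under 0.05. KO and WT values were fully separated, with no overlap, for 6029 genes (38.0%), and for 2840 of the 2877 called. Most of the changes were small: the median absolute log2 fold change of called genes was 0.40, 109 of the rises and 113 of the falls reached 2-fold, and 26 and 22 reached 4-fold. The balance of rises and falls differed with abundance, a difference that was not tested. Among 1670 genes averaging 100 CPM or more, 426 fell (25.5%) and 134 rose (8.02%), whereas among 7909 genes averaging 10 to 100 CPM, 684 fell (8.65%) and 983 rose (12.4%). Long non-coding genes were called less often than protein-coding genes, 75 of 785 (9.55%) against 2672 of 13909 (19.2%), a difference that was not tested. In whole tissue, fewer cells of a type and less RNA per cell cannot be told apart for any of these genes. The number of calls moved with the libraries used: it was 5112 without WT replicate 5, 1137 to 1682 without any other single library, and 531 when the ZT16 libraries entered the fit, against 2503 when all of those but KO ZT16 replicate 2 did. A core of 897 genes was called whichever library was left out. Of the 146 called genes named here, 98 were also called with all 12 libraries.

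**Figure D1:**
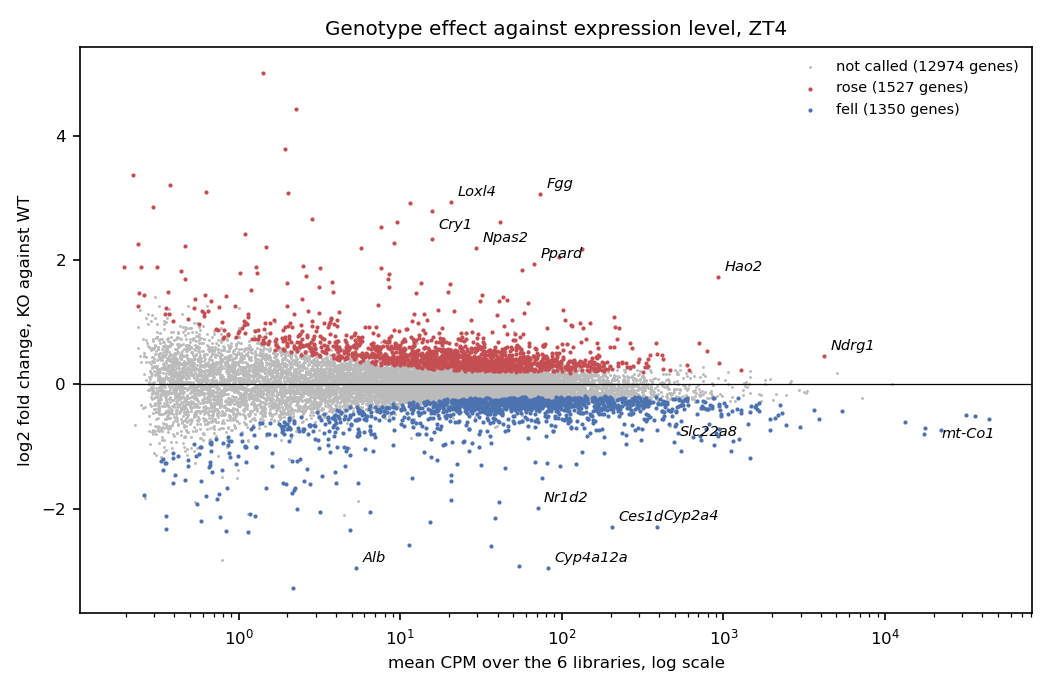
Log2 fold change of KO against WT at ZT4 (vertical) against the mean CPM over the 6 libraries (horizontal, log scale), 1 point per tested gene, with the 1527 genes that rose in red and the 1350 that fell in blue. Falls outnumber rises at the right, where 426 of the 1670 genes averaging 100 CPM or more fell and 134 rose.

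Log2 fold changes also followed transcript length and GC content. Over 13909 protein-coding genes, Spearman's rho of the fold change was 0.225 with exonic length and 0.255 with GC content, a description across genes, which are not replicates. With smooth length and GC offsets per library, an alternative added after seeing the data, the rho values were 0.015 and 0.0065, 2809 genes were called, 2069 of the 2877 were called the same way, and the split turned from 53.1% higher to 45.0% higher. Whether length and GC content carry library preparation or biology was not tested.

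The targeted gene came first. Arntl (ENSMUSG00000055116; on GRCm38, chromosome 7, 113207465 to 113314126 on the plus strand) had 21.5, 16.3 and 14.8 CPM in WT and 17.1, 15.5 and 17.4 CPM in KO, so its libraries overlapped, and its log2 fold change was -0.08 ± 0.12 (adjusted p = 0.684). The count covers all exons and all cells of the kidney, so it neither checks the deletion nor the labels. Arntl2, a paralog of Arntl, and Clock, its partner, did not pass the test either, with log2 fold changes of 0.30 ± 0.19 and 0.11 ± 0.068. Npas2, the alternative partner of BMAL1, had 11.3, 8.35 and 11.8 CPM in WT and 48.6, 48.6 and 48.4 CPM in KO. The KO libraries were nearly equal, and their mean stood 4.61-fold above that of the WT libraries (log2 fold change 2.20 ± 0.11, adjusted p = 1.93e-07).

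Among the inhibitors of BMAL1, 3 of 5 rose and 1 fell. Cry1, a cryptochrome that represses CLOCK and BMAL1, had 4.59, 3.21 and 4.02 CPM in WT and 30.1, 27.8 and 25.2 CPM in KO. The groups lay far apart, with a 6.97-fold difference (log2 fold change 2.80 ± 0.12, adjusted p = 8.19e-08). Cry2, the second cryptochrome, had 18.2, 16.7 and 18.8 CPM in WT and 36.96, 39.3 and 34.5 CPM in KO, and every KO library was above every WT library (log2 fold change 1.04 ± 0.08, adjusted p = 9.95e-06). Per2, a core period gene, had 8.80, 10.6 and 11.9 CPM in WT and 22.7, 22.9 and 26.3 CPM in KO, a 2.29-fold rise with no overlap (adjusted p = 4.15e-05). Per3, the period gene usually counted as an output of the clock, went the other way, with 17.9, 21.1 and 25.1 CPM in WT and 8.22, 9.67 and 10.7 CPM in KO (log2 fold change -1.17 ± 0.13, adjusted p = 0.000182). Per1, which also answers to hormones and cyclic AMP, had 10.9, 10.9 and 22.2 CPM in WT and 11.4, 12.9 and 15.7 CPM in KO. Its WT replicate 5 alone was high, the groups overlapped, and the log2 fold change of -0.15 (adjusted p = 0.682) turned to 0.28 without that library.

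The REV-ERB genes of the second loop fell, as did the CHRONO gene. Nr1d1, the gene of REV-ERB alpha (ENSMUSG00000020889), had 55.4, 64.6 and 73.6 CPM in WT and 14.04, 19.9 and 18.4 CPM in KO. Nr1d2, the gene of REV-ERB beta (ENSMUSG00000021775), had 101, 125.4 and 113 CPM in WT and 27.6, 29.0 and 28.5 CPM in KO. Both fell in every KO library, by 3.70-fold and 3.98-fold, with log2 fold changes of -1.89 ± 0.13 (adjusted p = 4.04e-06) and -1.99 ± 0.084 (adjusted p = 6.13e-08). Ciart, the gene of the repressor CHRONO, was low throughout, with 0.867, 1.81 and 2.997 CPM in WT and 0.227, 0.472 and 0.658 CPM in KO. Its groups did not overlap, although the WT libraries spread over more than 3-fold (log2 fold change -2.09 ± 0.45, adjusted p = 0.0102). Bhlhe40, the gene of the E-box repressor DEC1, had 60.7, 75.1 and 79.2 CPM in WT and 90.4, 79.5 and 97.7 CPM in KO and did not pass the test (log2 fold change 0.31 ± 0.10, adjusted p = 0.053). Thra, a thyroid hormone receptor gene whose 3' exons lie opposite those of Nr1d1, rose from 35.98, 35.3 and 36.7 CPM to 76.2, 79.7 and 84.7 CPM (log2 fold change 1.15 ± 0.068, adjusted p = 1.18e-06). Shared exonic bases make up 5.7% of Thra and 8.55% of Nr1d1, and whether the counting used strand is not given in the sources used here.

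The 4 D-box factors divided evenly. Dbp, the gene of a D-box activator, had 25.3, 34.5 and 32.1 CPM in WT and 7.49, 11.9 and 11.9 CPM in KO, all KO libraries being below all WT libraries (log2 fold change -1.56 ± 0.16, adjusted p = 9.98e-05). Tef, its relative, had 199, 248 and 256 CPM in WT and 176, 177 and 184 CPM in KO, a fall of smaller size (log2 fold change -0.39 ± 0.088, adjusted p = 0.0129) that was lost when either of 2 of the 6 libraries was left out. Hlf, the third activator, rose, with 54.8, 69.8 and 72.9 CPM in WT and 91.6, 89.1 and 87.9 CPM in KO (log2 fold change 0.44 ± 0.095, adjusted p = 0.00958, and 0.0644 with all 12 libraries in the fit). Nfil3, the repressor at the same sequences, rose 3.12-fold, from 8.19, 5.54 and 5.86 CPM to 17.8, 20.4 and 23.4 CPM (adjusted p = 3.08e-05). Dbp shares 18.0% of its exonic bases with Sphk2 on the opposite strand.

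**Figure D2:**
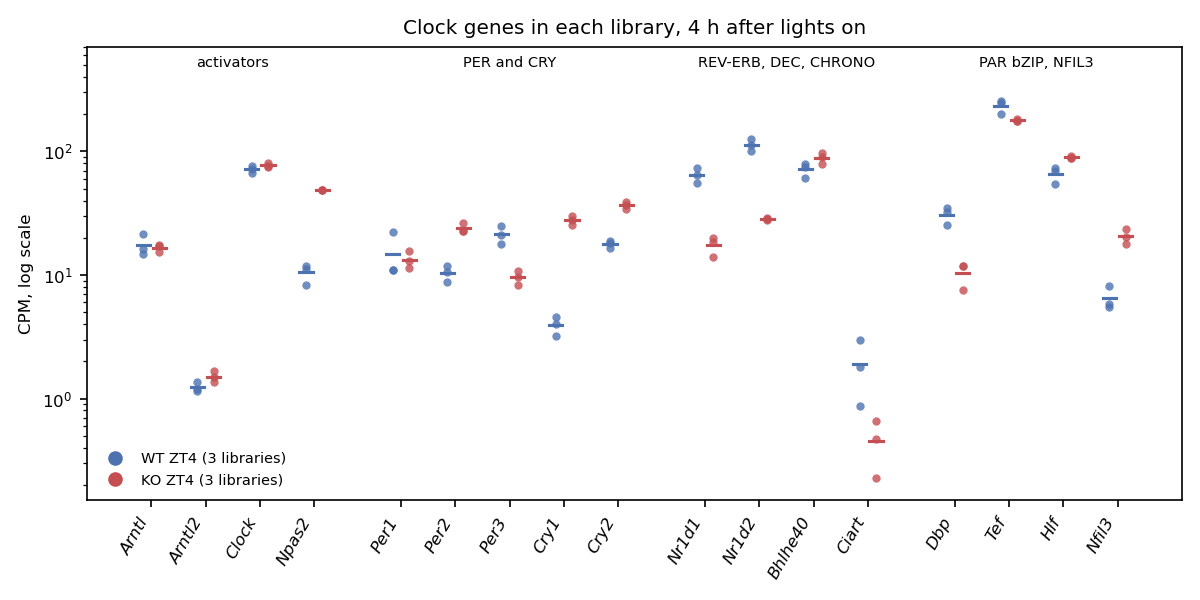
CPM on a log axis (vertical) of 17 clock genes (horizontal, by role) in the 3 WT and 3 KO libraries at ZT4, as points, with a bar at each group mean. Npas2, Cry1, Cry2, Per2, Hlf and Nfil3 lie higher in every KO library, Per3, Nr1d1, Nr1d2, Ciart, Dbp and Tef lie lower, and Arntl, Arntl2, Clock and Per1 overlap; Bhlhe40, whose groups nearly touch, did not pass the test.

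Of 19 clock kinases, ubiquitin ligases and cofactors, 5 rose and none of those tested fell (median log2 fold change 0.15). They were the casein kinase genes Csnk1e (0.56) and Csnk1d (0.29), the kinase Gsk3b (0.29), and Fbxw11 (0.24) and Btrc (0.26), which encode subunits of the ligase that marks PER proteins for breakdown. None of the 5 passed with all 12 libraries in the fit, where adjusted p ran from 0.131 for Csnk1e to 0.339 for Gsk3b. Over all tested genes 9.63% rose and 8.52% fell. Fold changes were negative for 4 of the 19. With length and GC offsets 6 of the 19 rose and 1 fell, and without WT replicate 5 these counts were 8 and 1.

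Promoter sequences were read for the clock genes because E-boxes, ROREs and D-boxes are the sequences through which the clock acts. RefSeq promoters on GRCm38.p6, 250 bases before to 50 bases after the start site, held an entry for 18 of 21 clock genes looked up. The canonical E-box CACGTG, a palindrome and so the same on both strands, was present in 7.15% of all 32851 promoters. It occurred 3 times in the promoter of Ciart, which fell, and in promoters of Tef, which fell, Cry1, which rose, Per1, which did not pass the test, and Bhlhe41, the gene of DEC2 (log2 fold change -0.12 ± 0.24, adjusted p = 0.77). The stretches around the matches of the first 4 genes, on the strand of the gene and from 5' to 3', are shown with the E-box in capitals. Ciart is read at chr3:95882258-95882353 on the minus strand with matches at positions -116, -58 and -44 from the start site, Tef at chr15:81802523-81802582 on the plus strand (-127), Cry1 at chr10:85185080-85185139 on the minus strand (-60) and Per1 at chr11:69098759-69098818 on the plus strand (-166).
Ciart: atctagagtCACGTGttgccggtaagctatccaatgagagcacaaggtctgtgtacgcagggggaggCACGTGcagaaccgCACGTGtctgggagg
Tef: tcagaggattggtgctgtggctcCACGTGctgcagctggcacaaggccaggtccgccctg
Cry1: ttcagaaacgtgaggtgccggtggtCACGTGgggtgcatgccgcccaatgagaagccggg
Per1: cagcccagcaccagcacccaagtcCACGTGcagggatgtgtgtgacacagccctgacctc
A match is a description of letters and not of binding.

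The other elements of the loop were searched on both strands. The RORE core TAGGTCA was present in 2.61% of all promoters, and among the clock genes looked up it lay in a promoter of Arntl and in that of Nfil3. The Nfil3 stretch is shown because the gene rose, at chr13:52981040-52981099 on the minus strand. It is read there as its reverse complement TGACCTA, in capitals, at position -12. The D-box, searched as TTATGNAA or TTANGTAA, which can overlap each other, was present in 4.71% of all promoters. Among the clock genes, promoters of Per1, Per3 and Rorb held it. The Per3 promoter, of a gene that fell, held it at positions -205 and -158, in capitals in the stretch at chr4:151044806-151044880 on the minus strand.
Nfil3: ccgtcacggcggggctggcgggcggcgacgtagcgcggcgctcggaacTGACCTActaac
Per3: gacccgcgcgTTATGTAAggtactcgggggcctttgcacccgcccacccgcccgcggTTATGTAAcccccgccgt
Across the 11418 tested genes with a promoter entry, CACGTG was present in 10.3% of those that rose, 11.8% of those that fell and 11.5% of those not called. For the D-box the shares were 3.58%, 6.89% and 3.51%, so its share was largest among the genes that fell, a description with no test. TAGGTCA was present in 2.88%, 3.7% and 2.2%.

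The largest rise by the naming rule belonged to fibrinogen. Fgg, which encodes the gamma chain of the clotting protein (ENSMUSG00000033860; chromosome 3, 83007724 to 83015049 on the plus strand), had 16.8, 14.1 and 15.8 CPM in WT and 146, 131.2 and 116 CPM in KO. The difference was 8.41-fold (log2 fold change 3.07 ± 0.10, adjusted p = 1.08e-08). All 3 chains rose together, Fga, the alpha chain, from 47.2, 24.9 and 38.9 CPM to 163, 164 and 138 CPM and Fgb, the beta chain, from 5.59, 2.93 and 2.90 CPM to 13.98, 13.8 and 11.9 CPM. Summed over the 3 chains, WT libraries held 42.0 to 69.5 CPM and KO libraries 265 to 323 CPM. Matrix genes also stood near the top. Loxl4, a lysyl oxidase that crosslinks collagen, rose 7.70-fold (log2 fold change 2.94 ± 0.15), with 5.81, 3.13 and 5.10 CPM in WT and 39.05, 33.99 and 36.6 CPM in KO, and Col6a6, a collagen VI chain, rose 6.16-fold, with 1.96, 2.61 and 3.42 CPM in WT and 17.3, 15.02 and 17.03 CPM in KO.

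Several other leading rises encode enzymes and transporters. Arg2, the mitochondrial arginase, had 5.17, 4.86 and 5.37 CPM in WT and 24.8, 27.6 and 26.4 CPM in KO, tight groups that lay 5.11-fold apart (log2 fold change 2.35 ± 0.091, adjusted p = 3.72e-08). Bhmt, which remethylates homocysteine with betaine, had 2.35, 3.49 and 3.46 CPM in WT and 15.2, 14.1 and 15.9 CPM in KO. Slc7a12, an amino acid transporter of the SLC7 family, had 10.7, 12.01 and 12.2 CPM in WT and 85.9, 50.1 and 78.5 CPM in KO, and its KO libraries differed among themselves by more than its WT libraries did. Aqp8, a water channel, was low in WT at 2.70, 2.93 and 2.34 CPM and reached 16.4, 15.1 and 29.3 CPM in KO, KO replicate 6 being the highest (log2 fold change 2.92 ± 0.25). Hao2, a peroxisomal hydroxyacid oxidase, rose at a high level, from 448, 402 and 432 CPM to 1533, 1274 and 1461 CPM (log2 fold change 1.74 ± 0.084, adjusted p = 1.83e-07). Ppard, the gene of the fatty acid receptor PPAR delta, had 28.7, 19.96 and 34.4 CPM in WT and 108, 118 and 93.7 CPM in KO, again with no overlap (log2 fold change 1.94 ± 0.15). Asb11, Tmprss9 and Ugt1a10 also belonged to the largest rises, as did Cry1 and Npas2 above, at log2 fold changes of 2.19, 1.88 and 2.54. The value of Ugt1a10 is uncertain, since it shares 58.1% of its exonic bases with Ugt1a7c.

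**Figure D3:**
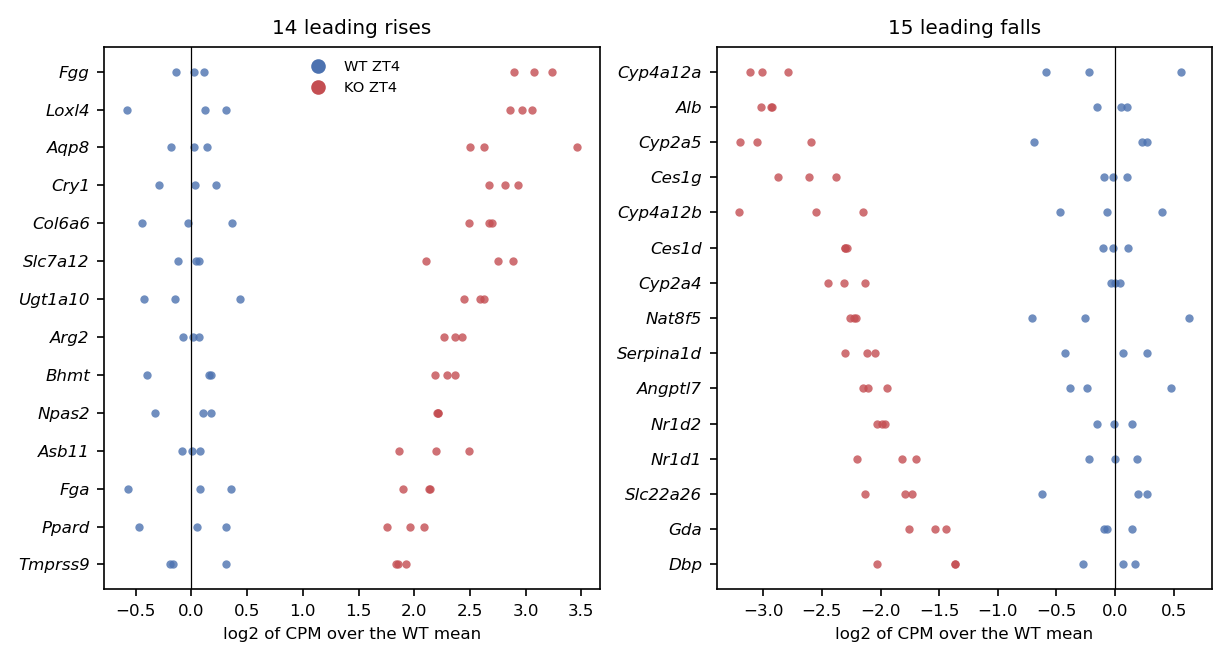
Log2 of each library's CPM over the WT mean of the gene (horizontal) for 14 of the 15 largest rises (left panel) and the 15 largest falls (right panel) by the naming rule, with WT libraries in blue and KO libraries in red. The library values of the genotypes do not overlap for any of these genes, which the rule required.

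The largest falls included drug-metabolizing enzymes and secreted proteins. Cyp4a12a, a fatty acid omega-hydroxylase of the cytochrome P450 family (chromosome 4, 115299046 to 115332815 on the plus strand), had 124.7, 216 and 96.6 CPM in WT and 18.1, 21.1 and 16.8 CPM in KO. WT libraries spread over more than 2-fold, yet the lowest stood well above every KO library (log2 fold change -2.96 ± 0.24, adjusted p = 1.35e-05). Its near-identical neighbour Cyp4a12b had 25.8, 14.1 and 18.6 CPM in WT and 4.396, 2.11 and 3.33 CPM in KO, and reads of such pairs may be split between them. Cyp2a5, a coumarin hydroxylase, fell 7.64-fold, from 59.2, 112 and 115 CPM to 10.4, 11.5 and 15.8 CPM, and its near-copy Cyp2a4, a steroid hydroxylase, fell 4.90-fold, from 630.2, 664 and 645 CPM to 147, 118 and 130.5 CPM. Ces1d, a carboxylesterase, gave the smallest adjusted p of the falls (1.08e-08), with 318, 368 and 338 CPM in WT and 69.2, 68.9 and 69.8 CPM in KO. Its relative Ces1g fell in parallel (log2 fold change -2.60 ± 0.11).

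Secreted and other proteins followed. Alb, the gene of serum albumin, was low in WT at 10.2, 9.80 and 8.50 CPM and lower in KO at 1.25, 1.17 and 1.24 CPM (log2 fold change -2.96 ± 0.14). Hrg, a histidine-rich plasma glycoprotein gene, had 8.13, 9.64 and 6.65 CPM in WT and 1.33, 2.04 and 1.35 CPM in KO. Serpina1d, an antitrypsin gene with near-identical copies, had 46.6, 65.8 and 75.5 CPM in WT and 14.5, 12.7 and 15.1 CPM in KO. All 3 genes fell by more than 4-fold. Angptl7, a secreted angiopoietin-like protein gene, fell 4.17-fold, Nat8f5, an acetyltransferase family member with near copies, 4.66-fold, and Slc22a26, an organic anion transporter gene, 3.65-fold. Gda, which encodes guanine deaminase, had 9.06, 7.67 and 7.80 CPM in WT and 3.01, 2.41 and 2.81 CPM in KO.

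Cytochrome P450 genes of families 1 to 4 moved in both directions, 12 of 39 tested falling and 7 rising (median log2 fold change -0.044, against 0.0038 over all tested genes). Summed over the 80 genes of the list, tested or not, they took 9840 to 10800 CPM in WT and 6850 to 6900 CPM in KO. Cyp4b1, an abundant kidney member, fell from 3459, 3738 and 3752 CPM to 2090, 2340 and 2359 CPM (log2 fold change -0.69 ± 0.076). The carboxylesterases moved one way: 8 of 10 fell and none of the 10 rose, with a median of -0.60; 4 fell with all 12 libraries in the fit. Beside Ces1d and Ces1g, these included Ces2c (-0.66) and Ces2e (-0.70), enzymes that cleave ester drugs. Of 47 glucuronosyl, sulfo, glutathione and acetyl transferases, 13 fell and 4 rose (median -0.17). Gsta3, a glutathione transferase, had 149.9, 146 and 119.5 CPM in WT and 55.7, 51.97 and 59.8 CPM in KO, and Glyat, a glycine acyltransferase, fell by 0.85 on the log2 scale.

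Carriers that bring drugs and organic ions into tubular cells fell more often than they rose. Of 23 SLC22 genes, 6 fell and 3 rose (median -0.17). Slc22a8, the organic anion transporter OAT3, had 618, 619 and 707 CPM in WT and 363, 346 and 314 CPM in KO (log2 fold change -0.93 ± 0.08, adjusted p = 2.13e-05). Slc22a5, the carnitine transporter OCTN2, fell from 242, 219 and 242 CPM to 136, 129 and 124 CPM (log2 fold change -0.85 ± 0.069). Slc22a6, the anion transporter OAT1, changed little (-0.22 ± 0.067, adjusted p = 0.0432), and its call held in 2 of the 6 fits that each left out a library. Of 8 SLCO transporters 2 fell, Slco1a6 among them at -0.90 ± 0.097, while Slco1a1, with 426, 855 and 444 CPM in WT and 292, 409 and 382 CPM in KO, did not pass (adjusted p = 0.0551). Among 18 ABC export pumps, 3 rose and 3 fell, including the paired multidrug pumps Abcb1b, which rose 2.07-fold, and Abcb1a, which fell 1.70-fold. Abcc3, a pump for conjugates, rose 2.06-fold. Over all tested genes 9.63% rose and 8.52% fell. With all 12 libraries in the fit 4 SLC22 genes fell and none of the 23 rose, and none of the 8 SLCO genes was called. In that fit 2 ABC pumps rose and 1 fell.

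Genes of fatty acid use fell in large number. Of 40 genes of fatty acid oxidation, 21 fell and 2 rose, with a median log2 fold change of -0.25, against 8.52% falling and a median of 0.0038 over all tested genes. Their summed level was 21500 to 22900 CPM in WT and 16300 to 16800 CPM in KO. The carnitine steps were among them: Cpt2, the inner-membrane carnitine palmitoyltransferase, had 186, 179.6 and 190.5 CPM in WT and 123.4, 128 and 124 CPM in KO (log2 fold change -0.57 ± 0.061, adjusted p = 0.000124), and Slc25a20, the carnitine-acylcarnitine carrier, had 59.8, 55.6 and 57.6 CPM in WT and 37.2, 34.4 and 32.1 CPM in KO (log2 fold change -0.74 ± 0.074). Acadl, the long-chain acyl-CoA dehydrogenase, Etfb, a subunit of the flavoprotein that takes its electrons, and Ehhadh, the peroxisomal bifunctional enzyme, fell by 0.64, 0.71 and 0.78 on the log2 scale. Slc27a2, a fatty acid transporter and acyl-CoA synthetase, fell from 4001, 4246 and 4105 CPM to 3143, 3105 and 3086 CPM. With all 12 libraries in the fit, 9 of the 40 fell and none rose.

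Of 19 target genes of PPAR receptors, 15 fell and none of the 19 rose, with a median of -0.74; 10 fell with all 12 libraries in the fit. Cyp4a12a and Ehhadh above also belong to this list. Vnn1, a pantetheinase, had 155, 150.2 and 148 CPM in WT and 95.5, 85.7 and 96.3 CPM in KO, and Plin2, a lipid droplet coat protein, had 112, 102 and 98.8 CPM in WT and 66.9, 65.7 and 66.8 CPM in KO. Angptl4, a secreted inhibitor of lipoprotein lipase, and Fabp1, a fatty acid binding protein, are known PPAR alpha targets. Both were picked after their values were seen, and they fell by 1.45 ± 0.23 and 1.56 ± 0.33 on the log2 scale. Fabp1 was low throughout, with 0.964, 0.602 and 1.02 CPM in WT and 0.340, 0.199 and 0.366 CPM in KO. With all 12 libraries in the fit, adjusted p was 0.0414 for Angptl4 and 0.0913 for Fabp1. These falls stood beside the rise of Ppard given above.

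Mitochondrial and peroxisomal genes of other kinds also leaned down. Of the 11 mRNAs encoded in mitochondrial DNA that were tested, 8 fell (median -0.74), for example mt-Co1, a catalytic subunit of cytochrome oxidase, from 56220, 53120 and 47070 CPM to 34540, 35150 and 36680 CPM (log2 fold change -0.56 ± 0.091, adjusted p = 0.00218), and mt-Nd5, a complex I subunit, from 22710, 22570 and 21580 CPM to 13640, 12440 and 12260 CPM (-0.80 ± 0.08). Of 78 nuclear-encoded respiratory chain subunits, 24 fell and none of the 78 rose (median -0.23), among them Ndufa13 (-0.41 ± 0.078), Ndufa11 (-0.42 ± 0.097) and Ndufa10 (-0.27 ± 0.065), complex I subunits. The mitochondrial mRNAs are themselves counted in the mitochondrial share of the libraries given above, so they move with it by definition. The nuclear-encoded subunits leaned down in the same libraries, and the part of that share in their falls was not tested. Neither group kept a call with all 12 libraries in the fit (0 of 11 and 0 of 78). With length and GC offsets 6 and 14 fell, and without WT replicate 5, 48 of the 78 nuclear genes fell. Of 42 SLC25 mitochondrial carriers, 7 fell and 2 rose (median -0.065). Of 28 antioxidant genes 14 fell and 1 rose (median -0.22), and 4 fell with all 12 libraries: Cat, the peroxisomal catalase, had 1137, 1128 and 1092 CPM in WT and 767, 827 and 807 CPM in KO (log2 fold change -0.48 ± 0.065, adjusted p = 0.000595), and Hmox1, haem oxygenase 1, fell 1.78-fold.

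Proteasome subunits showed the same lean. Of 38 tested, 24 fell and 1 rose (median -0.31), including the ATPase subunits Psmc2 (-0.41), Psmc4 (-0.42) and Psmc6 (-0.45) and the lid subunit Psmd12 (-0.35). With all 12 libraries in the fit 3 fell. By comparison, of 78 cytosolic ribosomal protein genes 3 fell and 2 rose (median -0.078), although 24 fell without WT replicate 5.

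**Figure D4:**
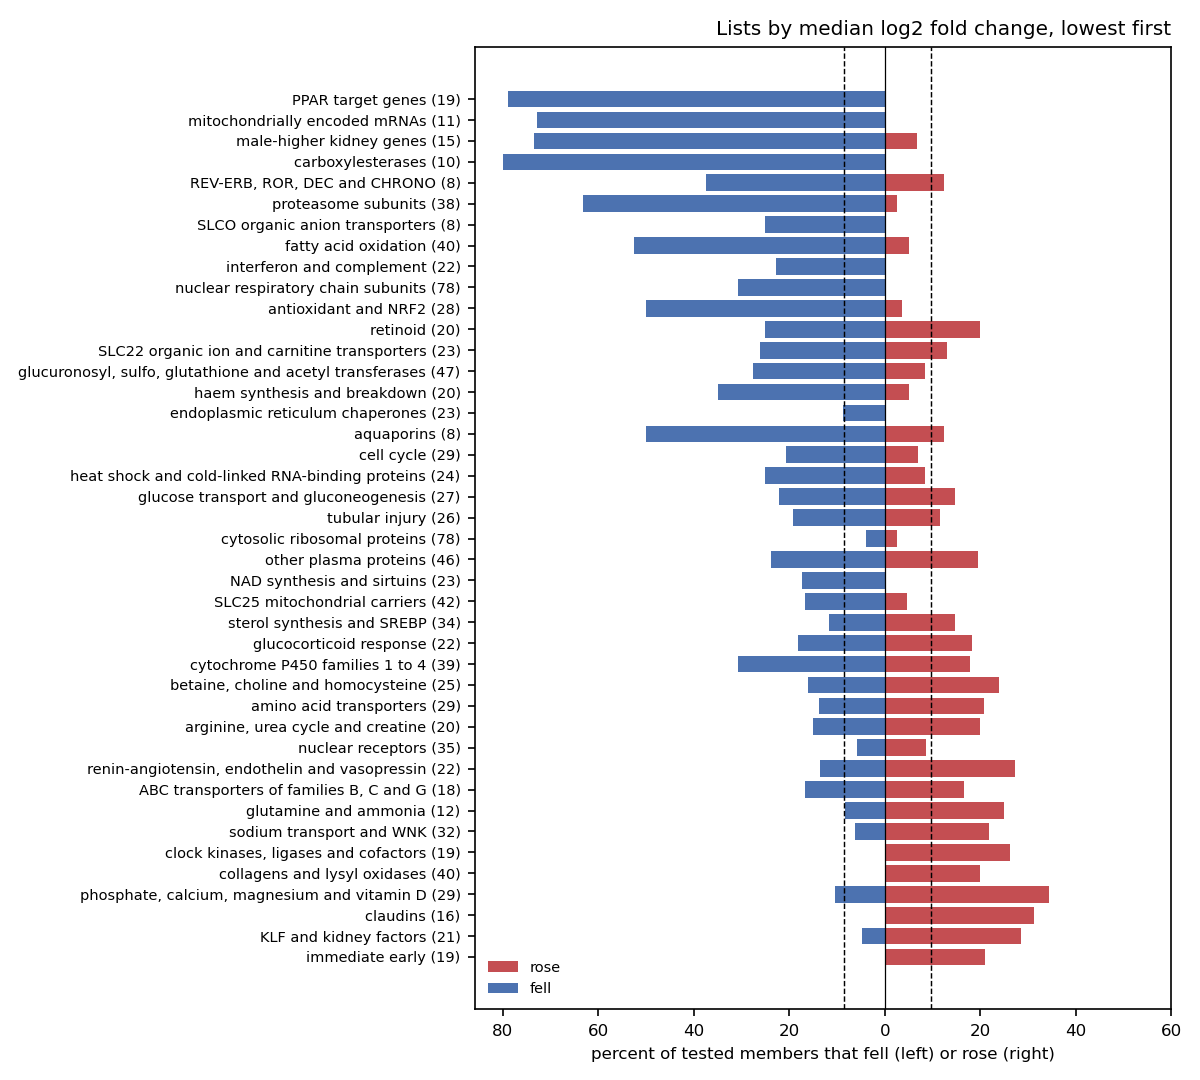
Percent of the tested members (number in brackets) that fell (blue, left) or rose (red, right) in each pathway list of at least 8 tested members, ordered by median log2 fold change with the lowest at the top; dashed lines mark the percent over all tested genes, 8.52% that fell and 9.63% that rose. PPAR targets (15 of 19), carboxylesterases (8 of 10) and proteasome subunits (24 of 38) have long bars to the left, and phosphate, calcium, magnesium and vitamin D genes (10 of 29) and claudins (5 of 16) to the right.

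Amino acid and nitrogen metabolism changed in both directions. Of 20 genes of the arginine, urea and creatine list, 4 rose and 3 fell (median 0.044). Beside Arg2, Gatm, which makes the creatine precursor guanidinoacetate, rose slightly (0.23 ± 0.071, adjusted p = 0.0423), a call kept in 1 of the 6 fits that each left out a library, whereas Asl, argininosuccinate lyase (-0.37 ± 0.063), and Odc1, which makes the polyamine putrescine (-0.73 ± 0.15), fell. Of 12 genes of glutamine handling 3 rose and 1 fell (median 0.10). Slc38a3, the glutamine transporter of the basolateral membrane, had 49.4, 38.2 and 47.6 CPM in WT and 56.3, 75.0 and 70.8 CPM in KO, and Glud1, glutamate dehydrogenase, had 331, 366 and 349.8 CPM in WT and 476, 478 and 507 CPM in KO. In the betaine and homocysteine list 6 of 25 rose and 4 fell (median 0.042). Bhmt2 (0.60) and Dmgdh, dimethylglycine dehydrogenase (0.74), rose as Bhmt did, and Ahcy, which splits adenosylhomocysteine, fell (-0.45). Of 29 amino acid transporters 6 rose and 4 fell (median 0.043). Slc6a19, the apical carrier of neutral amino acids, fell from 645, 656 and 676 CPM to 430, 387 and 496 CPM (log2 fold change -0.59 ± 0.086), and Slc6a6, the taurine carrier, rose (0.50 ± 0.085). Over all tested genes 9.63% rose and 8.52% fell. With all 12 libraries in the fit 1 gene rose and 2 fell in the arginine list, and 2 rose and 0 fell in the glutamine list. In that fit 4 rose and 0 fell in the betaine list, and 3 amino acid transporters rose and 3 fell.

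Of 27 genes of glucose and fructose handling 4 rose and 6 fell (median -0.10), against 9.63% and 8.52% over all tested genes. With all 12 libraries in the fit 1 rose and 2 fell. Slc2a5, the fructose transporter, had 98.7, 109 and 99.3 CPM in WT and 57.0, 57.4 and 58.4 CPM in KO (log2 fold change -0.83 ± 0.065, adjusted p = 1.14e-05). The basolateral glucose transporters diverged, Slc2a2 of the early proximal tubule falling (-0.45 ± 0.081) and Slc2a1 rising (0.57 ± 0.068). G6pc, glucose-6-phosphatase, had 529, 730.4 and 674 CPM in WT and 1066, 733 and 1003 CPM in KO. Its groups nearly touched, at 730.4 and 733 CPM, and the call held in 3 of the 6 fits that each left out a library. Pck1, the gluconeogenic carboxykinase, did not pass the test (0.20 ± 0.078, adjusted p = 0.0911). Ddc, which makes dopamine in the proximal tubule, had 161, 131.2 and 136 CPM in WT and 197, 193 and 196 CPM in KO (log2 fold change 0.45 ± 0.079).

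Among transport genes of the tubule, rises were more frequent than falls for sodium, divalent ions and tight junctions. Of 32 genes of sodium transport and its WNK control 7 rose and 2 fell (median 0.14). Wnk4, a kinase that regulates the chloride cotransporters, had 142, 120.4 and 162 CPM in WT and 187, 185 and 199.6 CPM in KO (log2 fold change 0.43 ± 0.094, adjusted p = 0.011, and 0.294 with all 12 libraries). Tsc22d3, which encodes the glucocorticoid-induced leucine zipper protein, rose 1.64-fold. Of 16 claudins 5 rose and none of the 16 fell (median 0.19), led by Cldn1 with 30.4, 29.2 and 29.7 CPM in WT and 57.1, 51.3 and 63.6 CPM in KO. Slc12a1, listed above, did not pass the test (0.21 ± 0.07, adjusted p = 0.0552). With all 12 libraries in the fit 1 gene rose in each of these lists.

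Of 29 genes for phosphate, calcium, magnesium and vitamin D, 10 rose and 3 fell (median 0.19; 4 and 2 with all 12 libraries). All 3 that fell were vitamin D hydroxylases. Cyp27b1, which makes active vitamin D, had 5.24, 5.22 and 7.47 CPM in WT and 2.55, 1.62 and 1.79 CPM in KO (log2 fold change -1.59 ± 0.20, adjusted p = 0.000387), and Cyp27a1, a sterol and vitamin D hydroxylase, fell by 0.46 on the log2 scale. Cyp24a1, which inactivates vitamin D and was picked after its value was seen, fell by 0.78. Slc34a2, a phosphate cotransporter mainly known from lung and gut, rose 3.25-fold from 3.53, 3.45 and 4.81 CPM to 11.8, 15.1 and 11.5 CPM, while Slc34a1, the main phosphate cotransporter of the proximal tubule, did not pass (0.19 ± 0.082, adjusted p = 0.129). Stc2, a stanniocalcin, rose 2.24-fold, and Cnnm2, a magnesium handling protein of the distal convoluted tubule, rose by 0.49 ± 0.08. Of 8 aquaporins 4 fell and 1, Aqp8, rose (median -0.15). Aqp1, the water channel of the proximal tubule, had 1128, 1023 and 991 CPM in WT and 832, 851 and 836 CPM in KO (-0.32 ± 0.07), and Aqp4, of the collecting duct, had 40.6, 66.2 and 36.6 CPM in WT and 27.9, 23.97 and 22.1 CPM in KO (-0.95 ± 0.18, adjusted p = 0.109 with all 12 libraries). Of 22 genes of the renin-angiotensin, endothelin and vasopressin systems 6 rose and 3 fell (median 0.094), with rises of Avpr1a, a vasopressin receptor (0.73 ± 0.094), and Agt, angiotensinogen (0.50 ± 0.099), and a fall of Klk1, tissue kallikrein (-0.45 ± 0.076).

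Plasma protein genes other than fibrinogen gave 9 rises and 11 falls of 46 (median -0.070). Ttr, the carrier of thyroid hormone and retinol, rose from 87.3, 94.5 and 78.9 CPM to 155, 149 and 212 CPM (log2 fold change 0.98 ± 0.12) while Alb fell, so transcripts best known from liver moved both ways. All 12 liver markers listed, tested or not, summed to 505 to 555 CPM in WT and 945 to 1040 CPM in KO. Of the 9 tested, 6 were higher and 1, Alb, was lower. Alb, the defining transcript of liver, was at 8.50 CPM or more in WT and at 1.25 CPM or less in KO. Of 12 liver markers listed, 3 did not pass the filter on low counts. Of 40 collagens and lysyl oxidases 8 rose and none of the 40 fell (median 0.17), including the basement membrane chains Col4a3, with 281, 272 and 338 CPM in WT and 474, 466 and 467 CPM in KO, and Col4a4 (0.59 ± 0.11). With length and GC offsets 6 rose and 3 fell, 15 rose without WT replicate 5, 3 rose with all 12 libraries, and adjusted p for Col4a3 was 0.0627 with all 12 libraries. Of 26 tubular injury genes 5 fell and 3 rose (median -0.089). Havcr1, which encodes the injury marker KIM-1, was low in all libraries, with 4.27, 2.61 and 3.23 CPM in WT and 1.25, 0.995 and 0.841 CPM in KO, and Cdkn1a, the cell cycle inhibitor p21, rose from 7.45, 4.98 and 7.34 CPM to 16.6, 19.5 and 19.4 CPM (log2 fold change 1.48 ± 0.14).

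Genes with known sex differences in mouse kidney moved too. Of 15 genes known to be higher in males, 11 fell and 1 rose (median -0.67), including Cyp4a12a, Cyp4a12b, Cyp4b1 and Slc7a13, an amino acid transporter of the late proximal tubule that had 1077, 1281 and 1125 CPM in WT and 668, 749.9 and 689.5 CPM in KO (log2 fold change -0.72 ± 0.081). Kap, the androgen-regulated kidney protein, had 35730, 44280 and 31720 CPM in WT and 27400, 26660 and 25120 CPM in KO (-0.50 ± 0.12, adjusted p = 0.0139, and 0.428 with all 12 libraries). Of 4 genes higher in females, Slc7a12 and Prlr, the prolactin receptor gene (20.9, 22.01 and 31.1 CPM in WT and 114, 68.5 and 84.8 CPM in KO), rose and Cyp2a4 fell. The Y-linked genes of the list were expressed in all 6 libraries. The list of male-higher genes held several of the P450 genes counted above, and 7 of its 15 fell with all 12 libraries in the fit.

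Markers of the proximal tubule and thick ascending limb gave calls in both directions. The few calls among markers of the distal nephron and of podocytes were rises. Over all tested genes 9.63% rose and 8.52% fell. Of 9 markers of S1 and S2 proximal tubule 2 fell and 1 rose, and of 7 markers of S3, the straight part, 3 fell and 1 rose; their sums were 12700 to 13800 CPM in WT and 13400 to 13800 CPM in KO for S1 and S2, and 8810 to 9950 CPM and 6980 to 7450 CPM for S3. Acy3, an aminoacylase of the S3 list, fell from 2222, 2717 and 2452 CPM to 1582, 1780 and 1735 CPM (log2 fold change -0.54 ± 0.086). Of 7 thick ascending limb markers 1 rose and 1 fell, the latter being Umod, uromodulin, with 4939, 4365 and 4669 CPM in WT and 3058, 3254 and 3237 CPM in KO (-0.55 ± 0.075); the sum was 7840 to 8710 CPM in WT and 7000 to 7250 CPM in KO. Of 6 markers of the distal convoluted tubule 1 rose and all 6 had positive fold changes, with a sum of 993 to 1250 CPM in WT and 1260 to 1360 CPM in KO. Of 9 markers of the connecting tubule and principal cells 4 rose and none of the 9 fell, with a sum of 861 to 987 CPM in WT and 1030 to 1110 CPM in KO. Fold changes were positive for 7 of these 9 and negative for 2, and 1 fell without WT replicate 5. Of 7 podocyte markers, outside the tubule, 1 rose and all 7 had positive fold changes, with a sum of 252 to 309 CPM in WT and 314 to 330 CPM in KO. Of these 7, 0 rose with length and GC offsets and 5 without WT replicate 5. None of the markers of the distal convoluted tubule, the connecting tubule and principal cells, or podocytes was called with all 12 libraries in the fit. Of 11 intercalated cell markers 5 rose and none of the 11 fell, with a sum of 420 to 473 CPM in WT and 493 to 514 CPM in KO. They included Slc4a9, an anion exchanger, with 55.6, 56.6 and 62.9 CPM in WT and 77.0, 89.3 and 82.3 CPM in KO, and the receptors Kit (0.68 ± 0.11) and Insrr (0.58 ± 0.12) and the factor Hmx2 (0.71 ± 0.14). Fold changes were positive for 8 of the 11 intercalated cell markers and negative for 3. With length and GC offsets 5 rose and 1 fell, as was the case without WT replicate 5. With all 12 libraries in the fit 2 of the 11 rose, and adjusted p was 0.091 for Kit and 0.223 for Insrr.

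Among cells outside the tubule, 4 of 10 macrophage markers fell and none of the 10 rose (median -0.40), their sum being 356 to 501 CPM in WT and 289 to 318 CPM in KO. The count was 6 without WT replicate 5 and 1 with all 12 libraries. Csf1r, the receptor for colony stimulating factor 1, had 85.8, 77.3 and 83.9 CPM in WT and 64.5, 69.5 and 62.2 CPM in KO (-0.33 ± 0.07), and Cd74, the invariant chain of antigen presentation, fell by 0.47 on the log2 scale. Il34, a ligand of Csf1r made by tubular cells, fell from 24.96, 29.5 and 27.8 CPM to 14.2, 15.7 and 13.3 CPM (log2 fold change -0.92 ± 0.091). Of 9 endothelial markers 3 fell, and of 9 fibroblast markers 2 fell. Lymphocyte markers summed to at most 24.8 CPM in WT and 18.5 CPM in KO, and red blood cell markers to 214 to 491 CPM and 177 to 264 CPM. Of 7 adrenal markers 1 passed the filter, and all 7 together summed to 0.527 to 0.803 CPM in WT and 0.621 to 0.936 CPM in KO. The part of cell composition in the results was not tested.

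Of 21 KLF and kidney factors 6 rose and 1 fell (median 0.23). Pax8, whose promoter drives the transgene, had 65.1, 62.2 and 70.0 CPM in WT and 86.0, 90.7 and 87.8 CPM in KO (log2 fold change 0.42 ± 0.067, adjusted p = 0.00188), Pax2 had 8.64, 8.68 and 8.69 CPM and 15.5, 15.3 and 13.4 CPM (0.77 ± 0.093), and Tfcp2l1, of the collecting duct, rose by 0.48 ± 0.082. With all 12 libraries these 3 had adjusted p of 0.205, 0.104 and 0.0741. Klf10, a known clock target, fell from 18.7, 18.8 and 17.1 CPM to 13.4, 11.04 and 13.3 CPM (-0.54 ± 0.097). Of 35 nuclear receptors 3 rose, Ppard and Thra among them, and 2 fell, including Nr1h4, the bile acid receptor FXR (-0.53 ± 0.11). These counts lie below the 9.63% and 8.52% of all genes, and with length and GC offsets 2 rose and 4 fell.

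The last comparison asked whether the effect of genotype in the light phase differed from that at ZT16, in a fit of all 12 libraries, whose joint scaling gives slightly different CPM from those above. Of the 2877 genes called with the ZT4 libraries alone, 2757 (95.8%) had the same sign at ZT16, and 488 (17.0%) passed the test there. Over all genes of the fit of 12 libraries, 651 of 16150 passed at ZT16. The share of all tested genes with the same sign at both times was not computed, so the 95.8% has no background beside it. At ZT4 itself, 526 of the 2877 (18.3%) passed in the fit of all 12 libraries. The 17.0% is therefore no measure of how many of the ZT4 effects persisted at ZT16. The difference between the effects passed for 3 of 16150 genes (0.0186%; 540 at an unadjusted p under 0.05), among them Cry1 and Stra6l. Cry1 had 4.27, 3.01 and 3.74 CPM in WT and 28.0, 25.9 and 23.4 CPM in KO at ZT4, against 15.2, 18.5 and 16.3 CPM in WT and 23.8, 30.3 and 30.6 CPM in KO at ZT16. The KO libraries lay in much the same range at both times, and the WT libraries were lowest at ZT4. The log2 effect was 2.80 at ZT4 and 0.76 at ZT16, a difference of -2.04 ± 0.20 (adjusted p = 0.00134).

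Stra6l, a retinol-binding protein receptor gene, went the other way. It had 34.5, 30.02 and 32.3 CPM in WT and 38.1, 45.2 and 38.3 CPM in KO at ZT4, and 15.2, 14.8 and 15.4 CPM in WT and 44.3, 45.6 and 45.9 CPM in KO at ZT16. The effect was 0.33 at ZT4 and 1.58 at ZT16. The effect at ZT4 was called with the 6 ZT4 libraries alone but neither in this fit (adjusted p = 0.0604) nor with length and GC offsets on the 6 libraries (adjusted p = 0.0524). Without KO ZT16 replicate 2, which lies with the WT libraries in its mitochondrial share (22.3%, against 14.0% and 14.1% in the other KO ZT16 libraries), 8 genes passed, among them Per2 with a difference of -1.23. Per2 had 56.1, 53.5 and 57.1 CPM in WT and 33.2, 59.2 and 49.96 CPM in KO at ZT16, and with all 12 libraries its log2 effect was -0.23 there against 1.195 at ZT4 (difference -1.42 ± 0.25, adjusted p = 0.245).

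**Figure D5:**
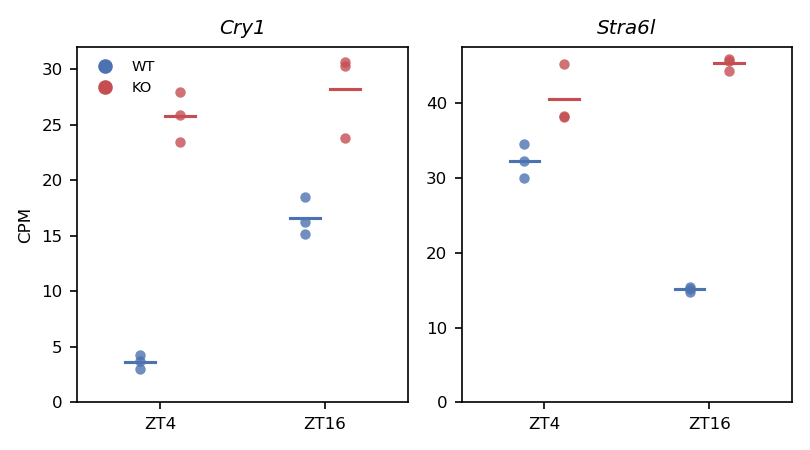
CPM of each of the 12 libraries (points, vertical axis from 0) at ZT4 and ZT16 for Cry1 and Stra6l, WT in blue and KO in red, with a bar at each group mean. For Cry1 the WT ZT4 group lies below the other 3 groups, and for Stra6l the WT ZT16 group does.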

How the data were processed

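RNA sequencing counts per gene, deposited by the authors, were used for 12 whole-kidney libraries made from 500 ng of total RNA with a TruSeq Stranded mRNA kit, per the labels' protocols. Per the submitters' processing notes, the tools were cutadapt 1.2.1, TopHat2 2.0.9, HTSeq 0.5.4p3, R 3.1.1, edgeR and limma, with the build GRCm38. How reads were assigned, whether strand was used and which annotation was counted: not given in the sources used here. HTSeq summary rows entered neither the library sizes nor the tests. At ZT4 they held 4.38% to 5.96% (no feature), 0.466% to 0.534% (ambiguous) and 30.8% to 36.5% (not unique) of a library. Symbols came from GENCODE M21 for 37607 of 38924 gene IDs.

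Genes were filtered with filterByExpr, normalized by TMM and compared by the quasi-likelihood test of edgeR 4.0.16 (R 4.3.3), with Benjamini-Hochberg adjustment over all tested genes and adjusted p under 0.05. The fit used the 6 ZT4 libraries (4 residual degrees of freedom, common dispersion 0.00665). It was chosen after an earlier fit of all 12 (common dispersion 0.0178), in which the ZT4 count moved with KO ZT16 replicate 2. That count was 531 with all 12 libraries and 2503 without that library. The interaction used all 12. The fold change is a fitted value ± SE. Libraries within a genotype differed beyond counting noise (chi-square per degree of freedom 5.58 to 20.3), so none was treated as a duplicate. KO and WT at ZT4 share no replicate number.

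The members and gene lists were chosen with earlier results of these data known, so the lists carry no test, only counts and medians. A rule set which genes could be named, 347 in all. It allowed all clock-list members and the 15 largest rises and falls with a mean of at least 5 CPM and no overlap. So were the 6 most abundant called genes in each direction, up to 4 called and 2 not-called members per list, and the interaction genes. The rule did not fix which of the allowed genes were named. A further 3 genes are marked as picked after their values were seen. With these, values are given for 157 genes, 146 of them called and 11 not called, so most genes with values are called ones. DESeq2 1.42.0 and limma 3.58.1 were alternatives. Genes with near-identical copies or overlapping exons are uncertain. Promoters came from RefSeq.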

Additional observations from a re-analysis of the deposited data

Results flagged for a closer look

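The effect of genotype differed between the times, by the interaction term of edgeR's quasi-likelihood fit of 12 libraries, for 3 genes, among them Cry1 and Stra6l. The KO against WT log2 fold change at ZT16 minus that at ZT4 was -2.04 for Cry1 and 1.25 for Stra6l, each with a Benjamini-Hochberg adjusted p of 0.00134. For both genes every KO library was above every WT library at both times. With the replicate number as a block, adjusted p was 0.122 for Cry1 and 0.0772 for Stra6l. Groups of 3 libraries were not tested for single outlying samples.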

How the results depend on the processing

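The count of 2877 genes at ZT4 moved between 2503 and 3592 under limma voom, DESeq2, 11 libraries, length and GC offsets, a 5 CPM filter or none, and RLE or upper-quartile scaling. It was 921 at adjusted p under 0.01 and 531 with all 12 libraries. Leaving out a library gave 1137 to 5112: 1320, 1682 and 5112 without WT replicates 1, 3 and 5, and 1559, 1137 and 1182 without KO replicates 2, 4 and 6. The cause of these shifts was not tested. The share of calls that were higher in KO, 53.1%, ran from 45.0% (offsets) to 55.3% (without KO replicate 2). Of 146 called genes named in the text, 126 stayed called with each library left out, 145 with offsets (chosen after seeing the data, as were the list counts by setting), 143 with DESeq2 and 98 with all 12 libraries. Those that lost a call without some library were Aqp1, Btrc, Csf1r, Csnk1d, Csnk1e, Cyp24a1, Fabp1, Fbxw11, G6pc, Gatm, Gsk3b, Igfbp7, Kap, Malat1, Ndufa10, Ndufa11, Slc22a6, Stra6l, Tef and Wnk4. Signs turned for 3 genes not called: the log2 fold change was 0.091 for Arntl without WT replicate 1, 0.28 for Per1 without WT replicate 5 and 0.048 for Bhlhe41 without WT replicate 3, against -0.080, -0.15 and -0.12 (lowest values without a library -0.20, -0.34 and -0.38).

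For the interaction, 3 genes were called with RLE scaling and limma voom, 18 with DESeq2, and 3 to 8 when a library was left out (8 without KO ZT16 replicate 2 and 5 without KO ZT16 replicate 4). In a fit with the replicate block, 1 gene was called. Same-numbered libraries share only a number in the labels, and no paired analysis of KO against WT at ZT4 was possible because the groups share none.

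The 3 libraries a group limit the precision, and at this depth few genes averaging under 1 CPM were called (42 rose and 49 fell of 1920).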

Other observations

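The counts of further lists at ZT4 are given here as a description, beside the 9.63% of all tested genes that rose and the 8.52% that fell. Of 20 genes of haem synthesis and breakdown 7 fell and 1 rose (median log2 fold change -0.15), with Alas1, the rate-limiting enzyme, at 223, 193 and 158 CPM in WT and 128, 118 and 137 CPM in KO (-0.59 ± 0.11; edgeR, adjusted p = 0.00459). Of 23 genes of NAD synthesis and the sirtuins 4 fell and none of the 23 rose, including Nampt, the salvage enzyme known as a clock target, with 206, 223 and 189 CPM in WT and 147, 142 and 154 CPM in KO (-0.48 ± 0.073, adjusted p = 0.00148, and 0.215 with all 12 libraries in the fit). Of 20 retinoid genes 5 fell and 4 rose. Bco1, which cleaves beta-carotene, fell 2.03-fold, and Adh1, an alcohol dehydrogenase that oxidizes retinol, fell by 0.63 on the log2 scale. Sterol genes gave 5 rises and 4 falls of 34, and 2 rises and 7 falls with length and GC offsets, with falls of Scd1, the stearoyl-CoA desaturase (-0.81 ± 0.16), and Sqle, squalene epoxidase (-0.51 ± 0.10), and a rise of Elovl6, a fatty acid elongase (0.41 ± 0.09).

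Of 19 immediate early genes 4 rose and none of the 19 fell (median 0.35). The summed level of the 21 listed genes with a count row, tested or not, spread within each genotype. It ran from 331 to 510 CPM in WT and from 334 to 666 CPM in KO. Ier5 had 8.77, 9.08 and 7.97 CPM in WT and 17.8, 14.6 and 18.9 CPM in KO (0.99 ± 0.11). Glucocorticoid response genes went 4 up and 4 down of 22, and Hsd11b1, which regenerates active glucocorticoid, had 164, 213 and 140.4 CPM in WT and 70.3, 71.9 and 71.6 CPM in KO, a 2.42-fold fall (adjusted p = 4.75e-05). Of 29 cell cycle genes 6 fell and 2 rose: Mki67, a marker of dividing cells, had 5.88, 5.98 and 6.19 CPM in WT and 3.77, 3.65 and 4.17 CPM in KO, and Ccnd1, cyclin D1, which shares 23.4% of its exonic bases with another gene, had 168, 182 and 199 CPM in WT and 97.7, 104 and 107 CPM in KO. Of 24 heat shock and cold-linked genes 6 fell and 2 rose, with Hsph1, a chaperone, at -0.40 ± 0.083, and of 23 endoplasmic reticulum chaperone genes 2 fell, a share near that of all genes, with Herpud1 at -0.51 ± 0.072. Of 22 interferon and complement genes 5 fell and none of the 22 rose; 3 fell with length and GC offsets and 1 with 11 libraries, without KO ZT16 replicate 2. These counts moved with the libraries used. In the fit of all 12 libraries, falls numbered 2 for haem, 2 for cell cycle, 1 for sterol, 1 for retinoid and 1 for endoplasmic reticulum genes and 0 for the NAD, heat shock and interferon lists, and 1 immediate early gene rose. Without WT replicate 5 the falls were 11 for haem, 7 for NAD, 10 for sterol, 6 for endoplasmic reticulum and 10 for interferon genes.

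Among the most abundant genes that rose were Ndrg1, a hypoxia and stress responsive gene, with 3964, 3250 and 3391 CPM in WT and 4849, 4843 and 4816 CPM in KO, Igfbp7, a secreted binding protein gene, with 867, 838 and 775 CPM in WT and 974, 1070 and 1102 CPM in KO, and the nuclear long non-coding RNA Malat1, with 444, 474 and 726 CPM in WT and 750.2, 853 and 1001 CPM in KO. The groups of Malat1 did not overlap, but WT replicate 5 lay close to the KO libraries, and its call held in 3 of the 6 fits that each left out a library (adjusted p = 0.164 with all 12 libraries).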
